A study of Rattus norvegicus with 3 samples.

Results

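The 9 genes described here are genes that macrophages use to bind sugars, take up spent proteins and handle plasma proteins, followed across the cells of diabetic rat wounds: Mrc1, Stab1, Clec10a, Asgr2, Cd209f, Fcna, F13a1, Slco2b1 and Fcgrt. They were chosen by symbol, as 9 of the 32883 genes in the count matrices, and each symbol had 1 row. The choice was made with their levels in resident-type macrophages of these same cells already known, so those levels are given as a description and no test was run on them. The animals were wild type male SD rats, aged 8 to 10 weeks by the design text, made diabetic with streptozotocin (65 mg/kg, blood glucose over 16.7 mM). All carried a full-thickness skin defect of 15 mm, sampled at 7 days. The 3 groups were an untreated wound, a wound under hyaluronic acid hydrogel (called hydrogel here) and a wound under CO-releasing hyaluronic acid hydrogel (CO hydrogel). Each group was 1 single-cell library, and the number of animals behind a library is not given, so no difference between groups has a replicate check and no p-value is given.

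The mannose receptor family, the galactose-binding receptors and the DC-SIGN family are C-type lectins, membrane proteins that read sugar patterns on glycoproteins and microbes and carry them into the cell. Scavenger receptors clear modified lipoproteins and matrix fragments, and soluble lectins such as ficolins tag sugars for complement. Macrophages that live in skin and other tissues for long periods are known for this clearance equipment, together with Cd163, Lyve1 and Folr2.

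The libraries held 12883 (untreated), 15442 (hydrogel) and 15376 (CO hydrogel) barcodes, above the roughly 8000 cells per library that the labels foresaw, with 78233883 to 109718517 UMIs (unique molecular identifiers, counted transcripts) each. After filters and doublet removal 35278 cells were kept, at a median of 2633.5 UMIs in the untreated library, 5941 under hydrogel and 6096 under CO hydrogel. Between 364 and 600 barcodes occurred in more than 1 library for each pair of libraries, and leaving those cells out moved the CO hydrogel to hydrogel ratio of Mrc1 on the log2 scale only from 1.82 to 1.84. Levels are UMIs of a gene per 1000000 UMIs (CPM), summed over the cells of a subgroup and library. Square brackets hold exact 95% intervals, which cover counting error only and not the spread between wounds. The assay tags the 3' end of transcripts, so a gene was compared with itself across cells and not with another gene.

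Of the 9 genes, 7 had a promoter in the RefSeq table (build GRCr8), all but Clec10a and Asgr2. The 250 bases before the gene start of the mannose receptor, the scavenger receptor, the soluble lectin and the coagulation factor are shown as 1 example of each of these roles, chosen after their motif counts were seen. They lie at chr17:82157475-82157724 (plus strand, Mrc1), chr16:6367360-6367609 (minus strand, Stab1), chr3:28847238-28847487 (minus strand, Fcna) and chr17:28020947-28021196 (plus strand, F13a1). Capitals mark GAGGAA or its reverse TTCCTC, the core letters bound by the myeloid factor PU.1 (Spi1), and TGCTGA or its reverse TCAGCA, part of the MAF recognition element.
Mrc1: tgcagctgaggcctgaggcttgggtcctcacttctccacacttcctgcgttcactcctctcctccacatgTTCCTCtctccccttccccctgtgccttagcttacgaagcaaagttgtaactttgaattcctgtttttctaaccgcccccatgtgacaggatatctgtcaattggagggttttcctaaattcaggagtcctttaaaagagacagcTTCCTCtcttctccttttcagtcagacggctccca
Stab1: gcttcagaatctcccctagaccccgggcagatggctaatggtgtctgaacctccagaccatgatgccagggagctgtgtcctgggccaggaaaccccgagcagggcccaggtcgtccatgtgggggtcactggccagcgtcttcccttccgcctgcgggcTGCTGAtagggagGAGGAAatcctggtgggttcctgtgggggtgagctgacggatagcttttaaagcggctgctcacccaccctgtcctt
Fcna: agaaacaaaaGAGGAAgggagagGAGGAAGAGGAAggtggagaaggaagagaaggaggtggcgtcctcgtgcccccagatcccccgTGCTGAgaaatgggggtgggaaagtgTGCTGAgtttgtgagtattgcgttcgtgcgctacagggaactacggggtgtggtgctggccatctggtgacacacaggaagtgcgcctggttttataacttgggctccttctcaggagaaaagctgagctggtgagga
F13a1: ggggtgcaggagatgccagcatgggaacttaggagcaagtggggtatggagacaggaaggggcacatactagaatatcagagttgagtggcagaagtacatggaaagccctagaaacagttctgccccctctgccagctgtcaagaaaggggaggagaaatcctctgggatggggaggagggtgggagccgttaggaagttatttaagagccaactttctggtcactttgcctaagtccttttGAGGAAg
Mrc1 held the first motif 2 times, Stab1 each motif 1 time, Fcna the first 3 and the second 2 times, and F13a1 the first 1 time. GAGGAA was in 5 of the 7 members' promoters and in 23.3% of 33469 promoters of the same length. TGCTGA was in 2 of 7 and in 15.1% of all. A match describes letters in a window and is not evidence of binding. RNA of both factors was present in the resident-type macrophages of every library, with Spi1 at 244, 317 and 263 CPM and Maf at 58.7, 52.2 and 69.0 CPM in the untreated, hydrogel and CO hydrogel library.

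Cells were clustered with the 9 genes left out, so that their levels did not draw the cluster borders, and subgroups were named from marker lists that hold none of them. Of 11017 myeloid cells in 19 subclusters, 7755 fell in 11 macrophage subclusters, called all macrophages here. The resident-type subgroup was 1 subcluster of 1582 cells. Its cells showed Cd163, the haptoglobin-hemoglobin receptor, at 938, 764 and 865 CPM in the untreated, hydrogel and CO hydrogel library, against 55.2, 8.34 and 89.0 CPM in the other macrophages. Lyve1, a hyaluronan receptor, stood at 1677, 508 and 605 CPM against 35.1, 3.34 and 15.2 CPM. Folr2, Selenop, Vsig4, Siglec1, Gas6, Igf1, Maf and Ccl24 were also higher in it in every library, while Pf4 was lower in it in the untreated library (1540 CPM against 3042 CPM). The name rests on these markers, and where the cells came from was not measured.

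Resident-type macrophages were a different share of all macrophages in each library. They numbered 242 of 1505 in the untreated library (16.1% [14.3 to 18.0]), 319 of 3943 in the hydrogel library (8.09% [7.26 to 8.99]) and 1021 of 2307 in the CO hydrogel library (44.3% [42.2 to 46.3]). Most of the 1582 cells thus came from the latter library. Their median depth was 9526.5, 6596 and 5188 UMIs in the same order. The shares hold for this clustering, and their intervals do not cover the choice of clustering. At the finer clustering below, the resident-type name covered more cells.

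Mrc1, the mannose receptor that takes up mannose-ended glycoproteins and collagen fragments, was at similar levels in resident-type macrophages of all wounds. It stood at 1801 CPM [1747 to 1856] in the untreated library, 1836 CPM [1779 to 1894] under hydrogel and 1919 CPM [1882 to 1956] under CO hydrogel. On the log2 scale the CO hydrogel level there was 0.06 above the hydrogel level and 0.09 above the untreated level. Subcluster 11 of the macrophages, unnamed and led by Atp1b1, Rarres1, Plau, Igf1 and Selenop, held 1035, 566 and 1009 CPM in the same order of libraries. Subcluster 7, an unnamed myeloid subcluster outside the macrophage pool led by Lpl, Sdc3, Klra1 and Pla2g2d, held 950, 847 and 856 CPM. Macrophages named for Trem2 and Gpnmb were lower, at 502, 256 and 401 CPM, and classical monocytes lower again at 150, 81.8 and 163 CPM.

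Clec10a, a receptor for galactose and N-acetylgalactosamine, was also high outside the macrophage pool, in subcluster 7 and mature dendritic cells. Subcluster 7 was left out of the pool by the naming rule, because its best-scoring name was class II high dendritic (score 0.361). At the finer clustering below, 394 of its 687 cells fell in 1 subcluster named resident-type and 137 in another. Resident-type macrophages held 1849, 2245 and 2990 CPM in the untreated, hydrogel and CO hydrogel library, and subcluster 7 held 1303, 1632 and 1576 CPM. Mature dendritic cells, a subcluster led by Ccl22 and Mfge8, were at 318, 318 and 677 CPM. Cd226, Cst3 and Ctse, also among its leaders, led a Clec9a subcluster of 14, 34 and 61 cells at the finer clustering. The mature dendritic group may thus mix kinds of dendritic cell, which was not tested. Classical monocytes stood at 73.6, 111 and 300 CPM, and the CO hydrogel library was the highest in the resident-type, dendritic and monocyte groups. Trem2 Gpnmb macrophages differed from that order, with 172, 15.6 and 85.4 CPM.

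Asgr2, a subunit of the asialoglycoprotein receptor, is next to Clec10a in the rat genome annotation with no gene between them. Its order of libraries was another one. In resident-type macrophages Asgr2 was at 557 CPM [527 to 588] in the untreated library, 177 CPM [159 to 195] under hydrogel and 429 CPM [412 to 447] under CO hydrogel. The hydrogel library was low and the other two were high, with no overlap of the counting intervals. The same library was lowest for Asgr2 in subcluster 11 (83.0, 30.2 and 63.5 CPM) and in Trem2 Gpnmb macrophages (26.4, 3.42 and 7.52 CPM). Clec10a in resident-type cells was higher in the hydrogel than in the untreated library, so the neighbouring genes did not share an order there.

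Cd209f, a rat member of the DC-SIGN lectin family, had the largest share of its UMIs in resident-type cells of the 9. Resident-type macrophages held 52.8 CPM [43.9 to 62.9], 38.7 CPM [30.8 to 48.0] and 35.0 CPM [30.2 to 40.3] in the untreated, hydrogel and CO hydrogel library, and 95.4%, 97.6% and 89.2% of all its UMIs in kept cells. No UMI was seen in Trem2 Gpnmb macrophages, classical monocytes, mature dendritic cells or subcluster 11 of any library. In subcluster 11 the exact 95% interval of a count of 0 reaches up to 3.15, 1.33 and 1.21 CPM. The signal came from few cells: only 3.31%, 2.51% and 1.86% of resident-type cells had a UMI, and the richest single cell held 61 of 124, 31 of 83 and 28 of 190 UMIs. The counting interval is therefore too narrow for Cd209f, since UMIs of 1 cell are not independent. The Cd209 genes are close copies of each other, and how reads shared between them were counted was not given in the sources used here.

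Stab1, stabilin-1, a scavenger receptor for modified lipoproteins and matrix proteins, was counted at few UMIs in every subgroup. Resident-type macrophages held 17.9 CPM [12.9 to 24.2], 28.4 CPM [21.8 to 36.5] and 34.6 CPM [29.8 to 39.9] in the untreated, hydrogel and CO hydrogel library. Subcluster 11 held 32.5, 21.6 and 37.3 CPM, above the resident-type level in the untreated and CO hydrogel libraries with overlapping intervals. Stab1 is also known from sinusoidal and lymphatic vessels, and blood endothelial cells here held 2.68, 1.78 and 1.38 CPM.

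Fcna, ficolin A, a secreted lectin that starts the complement lectin pathway, was at 646, 623 and 763 CPM in resident-type macrophages of the untreated, hydrogel and CO hydrogel library. Subcluster 11 held 113, 95.0 and 190 CPM and subcluster 7 held 119, 114 and 126 CPM. Classical monocytes held 70.8, 62.7 and 94.0 CPM. Fcna and Fcnb are related genes, Fcnb is a monocyte marker in these lists, and the counting of reads that match both was not given in the sources used here.

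F13a1, the catalytic chain of coagulation factor XIII that crosslinks fibrin, had a second site of high level. Resident-type macrophages held 517 CPM [488 to 547], 393 CPM [367 to 420] and 931 CPM [905 to 957] in the untreated, hydrogel and CO hydrogel library. Arg1 macrophages, named for arginase and hypoxia-linked genes, held 174 CPM in the untreated and 487 CPM [460 to 515] in the hydrogel library, the latter above the resident-type cells of that library. The CO hydrogel library had only 15 Arg1 macrophages, too few for a level. In the hydrogel library 329 cells of subcluster 18 held 551 CPM [519 to 584] from 1112 UMIs, at most 42 in 1 cell, whereas subcluster 1 held 173 CPM in the untreated and 226 CPM in the hydrogel library. Subcluster 18 had 7 cells in the untreated library, so the Arg1 groups of the 2 libraries were mostly different subclusters.

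Slco2b1, an organic anion transporter, was at 62.1, 73.2 and 107 CPM in resident-type macrophages of the untreated, hydrogel and CO hydrogel library and at 39.3, 23.7 and 74.0 CPM in subcluster 11. Subcluster 7, which had much Clec10a and Mrc1, held only 3.20, 4.83 and 3.73 CPM. Blood endothelial cells held 21.7, 27.0 and 38.0 CPM. For Slco2b1 the macrophages gave 66.6%, 53.4% and 55.9% of all UMIs in kept cells.

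Fcgrt, the heavy chain of the neonatal Fc receptor that returns IgG and albumin from endosomes to the cell surface, had the smallest share of its UMIs in macrophages of the 9. Resident-type macrophages held 1218, 995 and 1418 CPM in the untreated, hydrogel and CO hydrogel library. Osteoclast-like myeloid cells, led by Mmp9, Ctsk and Acp5, held 393 CPM in the hydrogel and 480 CPM in the CO hydrogel library. Subcluster 11 held 290, 229 and 511 CPM in the untreated, hydrogel and CO hydrogel library. Fibroblasts held 246, 249 and 285 CPM, mural cells 193, 201 and 236 CPM and blood endothelial cells 67.7, 123 and 229 CPM. All macrophages gave 33.4%, 29.7% and 33.8% of Fcgrt UMIs, against 84.1%, 88.9% and 80.9% of Mrc1 UMIs.

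**Figure D1:**
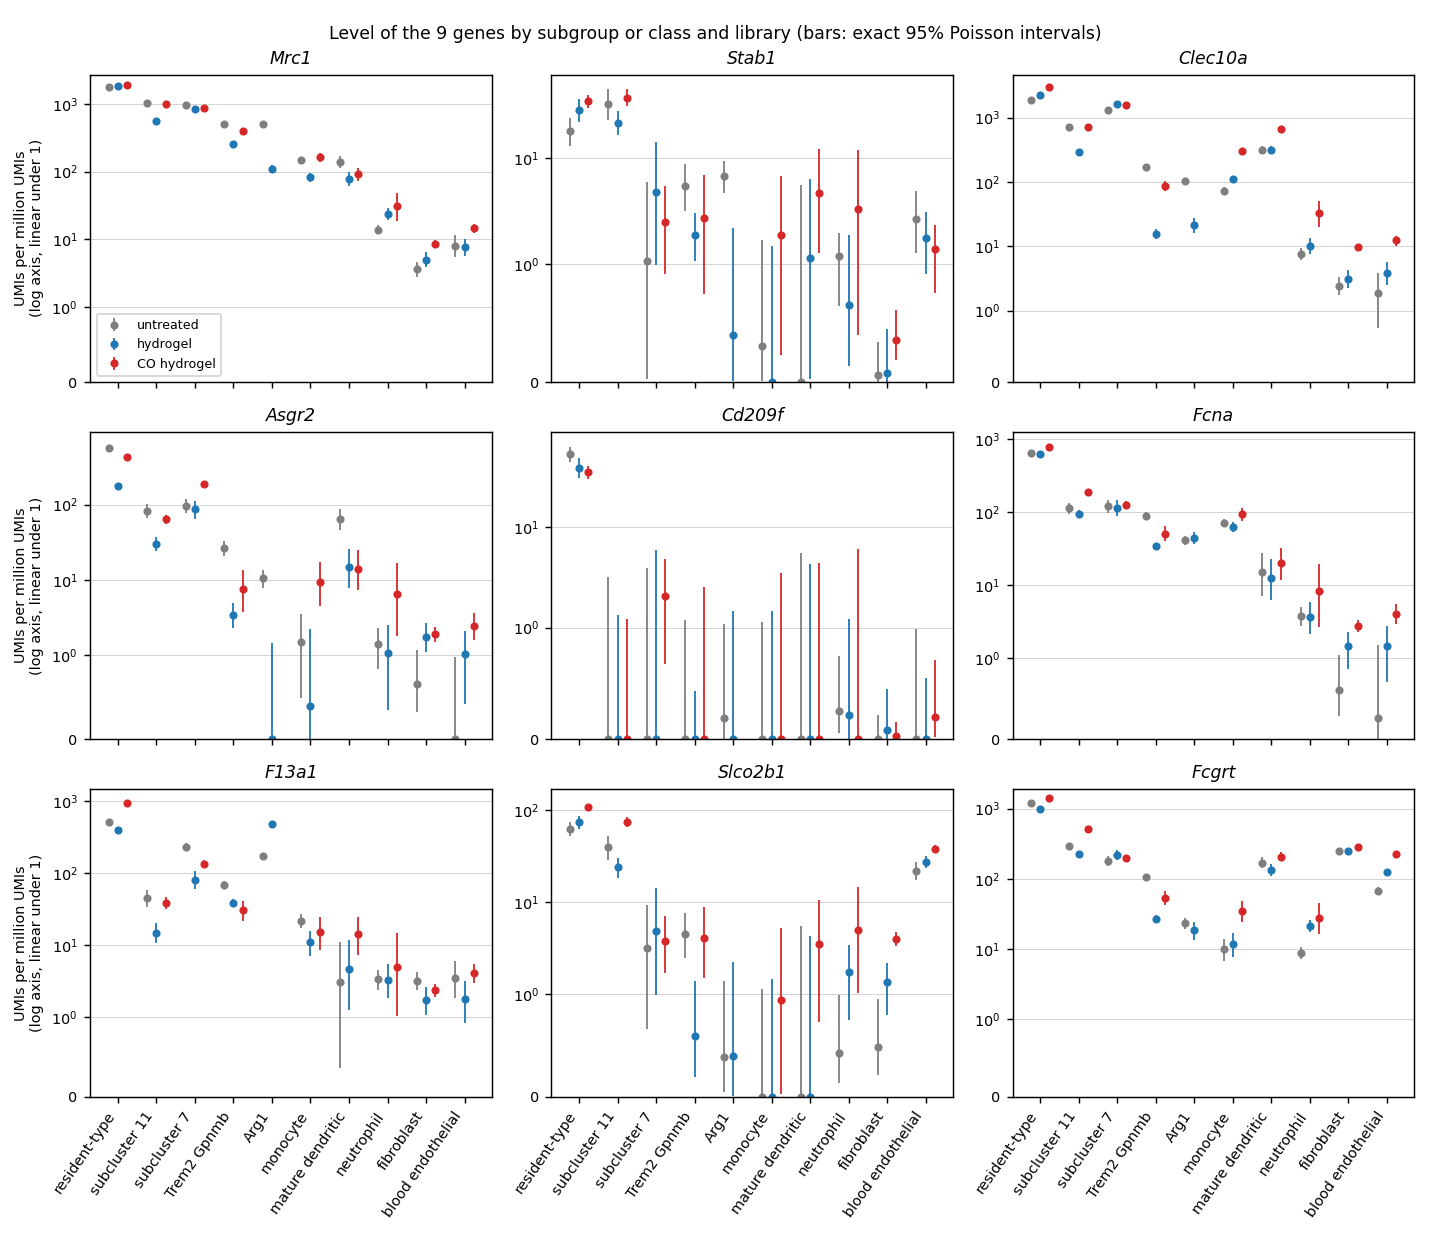
Level of each gene (CPM, log axis that is linear under 1) in 10 subgroups or classes, with grey for untreated, blue for hydrogel and red for CO hydrogel, and bars for exact 95% Poisson intervals. Resident-type macrophages sit highest for most genes, Cd209f is near 0 elsewhere, and hydrogel Arg1 macrophages (487 CPM) lie above hydrogel resident-type cells (393 CPM) for F13a1.

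Ranked over the subgroups of macrophages, monocytes and dendritic cells with at least 50 cells (8, 13 and 12 subgroups in the untreated, hydrogel and CO hydrogel library), 8 of 9 genes were highest in resident-type macrophages in each library. The exceptions were Stab1 in the untreated and CO hydrogel libraries and F13a1 in the hydrogel library. The genes had been chosen for this pattern.

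Shares of cells with a UMI were compared after thinning each cell to 1000 UMIs, so that depth did not set them. In resident-type macrophages Mrc1 was found in 78.3%, 78.5% and 77.9% of cells of the untreated, hydrogel and CO hydrogel library (unthinned 97.5%, 96.9% and 97.5%). Asgr2 was found in 39.6%, 14.2% and 30.9% (unthinned 79.3%, 37.0% and 60%), and F13a1 in 33.6%, 25.3% and 48.4% (unthinned 74.4%, 58.6% and 80.3%). Both genes were thus low in the hydrogel library by share of cells as well as by level. Neutrophils, which should lack these genes and had median depths of 1950, 1798 and 1309 UMIs, showed Mrc1 in 1.47%, 2.34% and 1.91% of thinned cells. They showed Clec10a in 0.874%, 1.21% and 4.09%. The neutrophil share of Clec10a was highest in the CO hydrogel library, where Clec10a-rich cells were most common. Of Stab1, 1.70%, 1.90% and 3.54% of thinned resident-type cells had a UMI against 0.146%, 0.0419% and 0.272% of neutrophils.

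**Figure D2:**
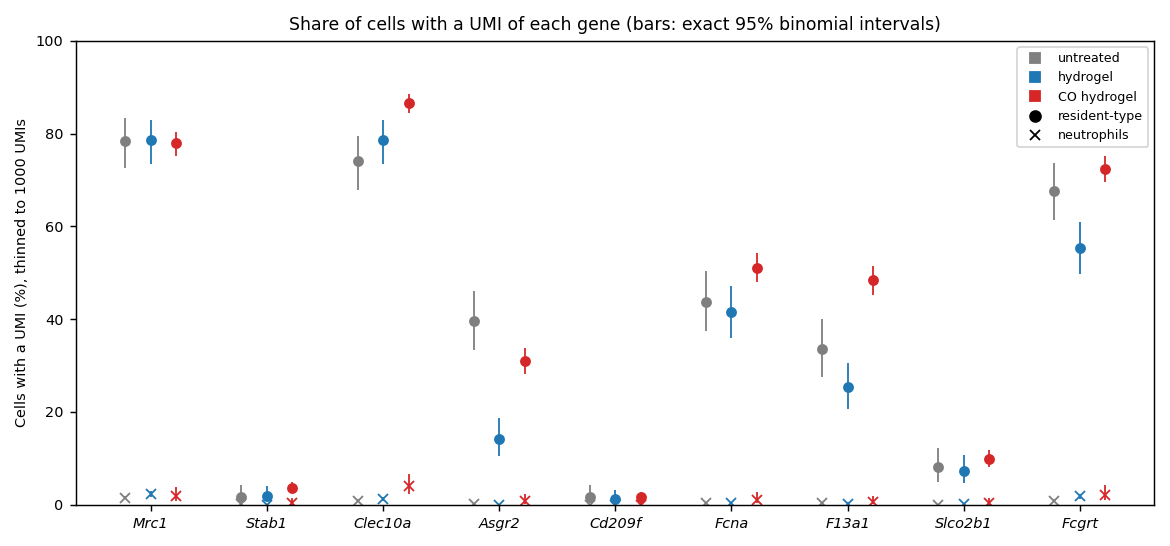
Percent of cells with a UMI of each gene after thinning to 1000 UMIs per cell, for resident-type macrophages (circles) and neutrophils (crosses) of each library, with exact 95% binomial intervals. Mrc1 is level at 77.9% to 78.5%, while Asgr2 is lowest in the hydrogel library (14.2%) and F13a1 highest in the CO hydrogel library (48.4%).

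How many of the 9 genes each single cell held was counted. No comparison was made with the number that the separate shares of the genes would give. Their choice by level in resident-type cells makes high counts there a description only. A thinned resident-type macrophage held UMIs of a median of 4, 3 and 4 of the 9 genes in the untreated, hydrogel and CO hydrogel library. At least 3 genes were found in 78.3%, 66.5% and 84.4% of resident-type cells, and no gene in 1.28%, 1.27% and 0.787%. In subcluster 11 at least 3 were found in 12.5%, 7.13% and 21.4% of cells, in subcluster 7 in 15.7%, 13.9% and 17.7%, and in Trem2 Gpnmb macrophages in 5.92%, 0.361% and 0.778%. Of neutrophils, 4.15%, 5.94% and 10.6% held at least 1 of the genes.

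CO hydrogel against hydrogel asks what release of carbon monoxide adds to the gel. Summed over all macrophages, each of the 9 genes was higher in the CO hydrogel library. Mrc1 was at 1214 CPM against 344 CPM (3.53-fold, log2 ratio 1.82 [1.79 to 1.86]). Clec10a was at 1441 CPM against 191 CPM (7.52-fold, 2.91 [2.87 to 2.95]). Asgr2 had the widest gap, with 198 CPM against 18.0 CPM (11-fold, 3.45 [3.33 to 3.58]). Stab1 (3.81-fold), Fcna (4.79-fold), F13a1 (5.31-fold), Cd209f (6.09-fold), Fcgrt (6.44-fold) and Slco2b1 (7.68-fold) lay between. All 9 of 9 passed 2-fold with at least 100 UMIs over both libraries, where 4.04% of 9212 genes were 2-fold higher and 3.52% were 2-fold lower. Their median log2 ratio was 2.61 against -0.03 over all genes. The 9 had been chosen for their levels in resident-type cells. Those cells held 41.5% of macrophage UMIs in the CO hydrogel and 6.21% in the hydrogel library, so the counts are a description. Only 0.91% and 0.203% of macrophages in these libraries held a Cd209f UMI.

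CO hydrogel against untreated compares the treated wound with no dressing. Of the 9 genes, 6 were at least 2-fold higher in all macrophages, 0 were lower and the other 3 stayed within that range, where 4.7% of 8156 genes were 2-fold higher and 3.27% were 2-fold lower. Slco2b1 (64.3 CPM against 16.5 CPM, log2 ratio 1.96), Clec10a (1.49), Fcgrt (1.38), Stab1 (1.28), Fcna (1.20) and F13a1 (1.15) were those past 2-fold. Asgr2 (0.73), Cd209f (0.62) and Mrc1 (0.60) were within it, and these 3 turned negative when subclusters were weighted equally (-0.35, -0.59 and -0.17).

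Hydrogel against untreated shows the gel without carbon monoxide, and here the genes were lower. In all macrophages 7 of 9 were at least 2-fold lower and 2 were within 2-fold, where 2.3% of 9129 genes were 2-fold lower and 4.1% were 2-fold higher. Asgr2 was at 18.0 CPM against 119 CPM, 6.61-fold lower (log2 ratio -2.72). Cd209f (-1.99), Clec10a (-1.42), Fcgrt (-1.31), F13a1 (-1.26), Mrc1 (-1.22) and Fcna (-1.06) were the others past 2-fold, and Slco2b1 (-0.98) and Stab1 (-0.65) were not. Fewer of the genes were 2-fold lower when subclusters were weighted equally or per-cell means were used, as given in the closing section. The 3 comparisons share libraries and are not independent of each other.

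Most of these gaps were smaller when the same subgroup was compared. Within resident-type macrophages only 2 of 9 genes were at least 2-fold higher in the CO hydrogel than in the hydrogel library, Asgr2 (1.28 [1.12 to 1.44]) and F13a1 (1.25 [1.14 to 1.35]), where 0.571% of 5254 genes were higher and 1.05% lower. The other 7 had log2 ratios from -0.15 (Cd209f) to 0.55 (Slco2b1), with Mrc1 at 0.06, Fcna at 0.29, Clec10a at 0.41 and Fcgrt at 0.51. Against the untreated library none of the 9 passed 2-fold in these cells, where 2.89% of genes were higher and 1.51% lower. Stab1 (0.95) and F13a1 (0.85) were the nearest to it. Hydrogel against untreated left 1 gene lower, Asgr2 at -1.66 [-1.82 to -1.49], where 1.16% of genes were lower and 2.94% higher.

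Weighting equally the subclusters that had at least 50 cells in both libraries gave 2 of 9 genes higher in CO hydrogel than in hydrogel, F13a1 (1.30) and Asgr2 (1.25), in place of 9. Cd209f turned to -0.11 in that weighting. In CO hydrogel against untreated it gave 0 of 9 genes past 2-fold, with F13a1 at 0.68 and Slco2b1 at 0.76. The percentage of a gene's macrophage UMIs that lay in resident-type cells was also read. For Mrc1 it was 40.2%, 33.2% and 65.5% in the untreated, hydrogel and CO hydrogel library. For F13a1 it was 50.7%, 32.0% and 95.4%, and both were in the order of the cell shares. Clec10a, at 64.4%, 72.8% and 86.0%, was not in that order, and Cd209f hardly differed (99.2%, 100% and 99.0%).

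The other macrophages also differed between libraries. Without the resident-type cells, Mrc1 was at 585, 245 and 716 CPM, Clec10a at 223, 55.4 and 344 CPM, Slco2b1 at 6.58, 4.08 and 33.9 CPM and Fcgrt at 84.5, 57.6 and 270 CPM in the untreated, hydrogel and CO hydrogel library. In CO hydrogel against hydrogel the log2 ratio was then 3.05 for Slco2b1, 2.63 for Clec10a, 2.23 for Fcgrt, 2.16 for Asgr2, 1.89 for Stab1, 1.55 for Mrc1 and 1.40 for Fcna. F13a1 turned the other way, at 109, 55.2 and 31.5 CPM, with a CO hydrogel to hydrogel ratio of -0.81 [-1.01 to -0.61] and a CO hydrogel to untreated ratio of -1.80. The libraries fill these cells differently: Arg1 macrophages numbered 546, 402 and 15, interferon-activated macrophages 15, 688 and 21, and subcluster 11 148, 407 and 509 cells.

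**Figure D3:**
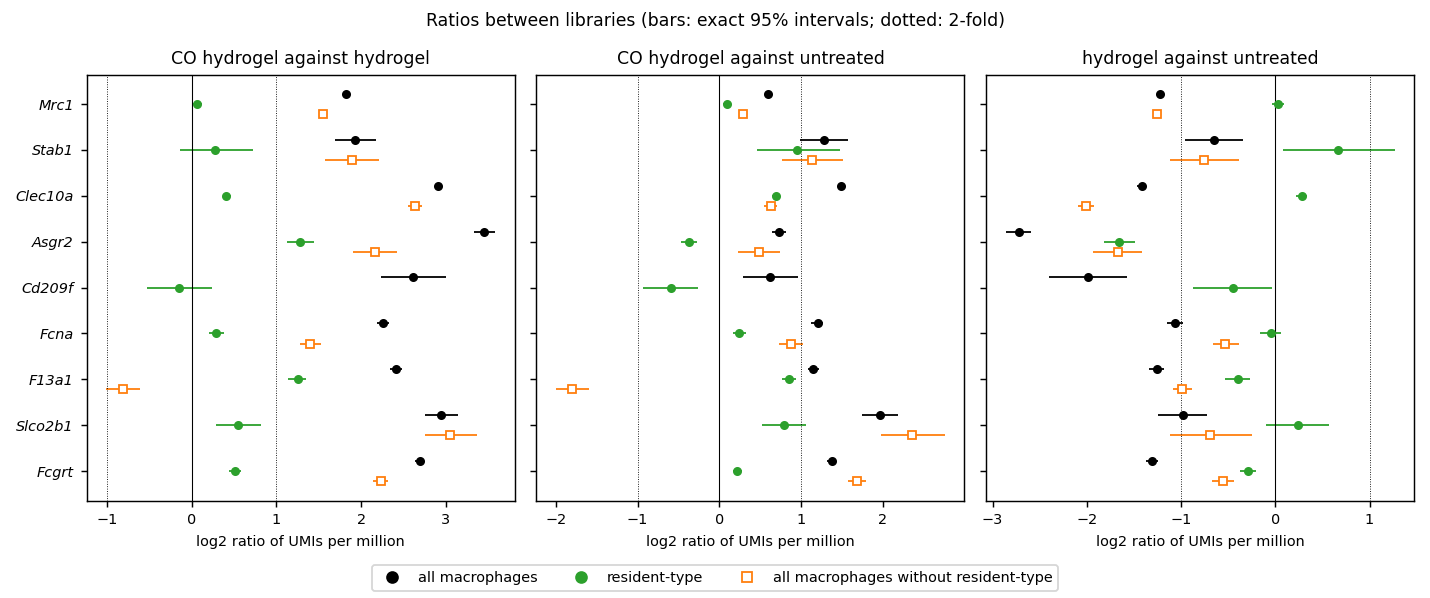
Log2 ratio of CPM between libraries for each gene, in all macrophages (black), resident-type macrophages (green) and all macrophages without them (orange squares), with exact 95% intervals and dotted lines at 2-fold. In CO hydrogel against hydrogel the black points lie at 1.82 to 3.45 and the green points at -0.15 to 1.28, and the orange point of F13a1 lies at -0.81.

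**Figure D4:**
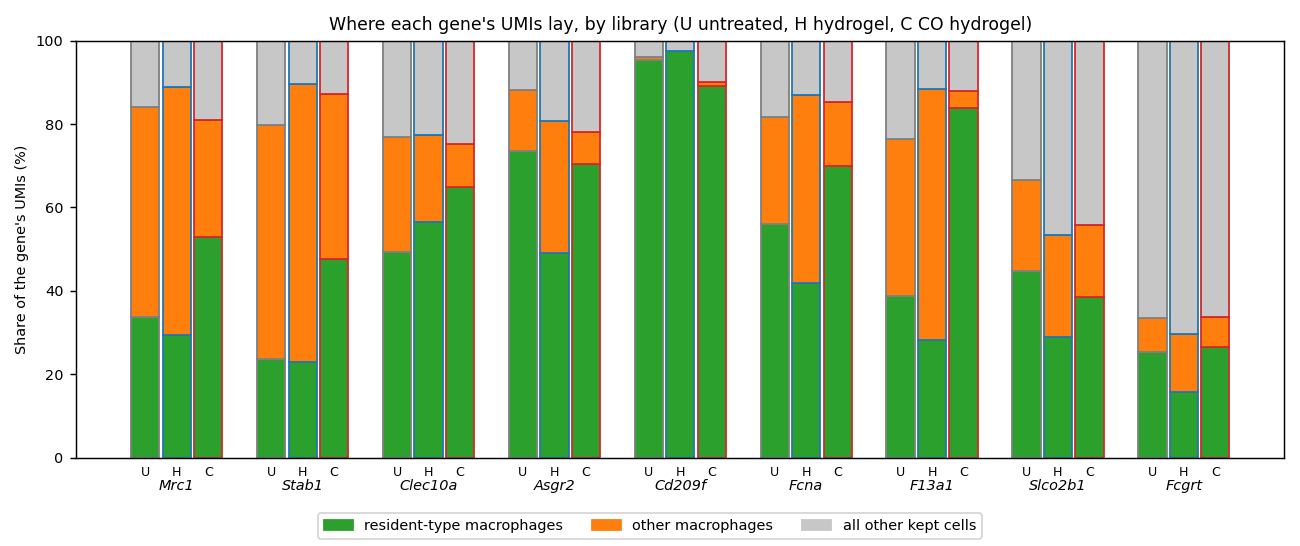
Share of each gene's UMIs (percent of all kept cells) that lay in resident-type macrophages (green), other macrophages (orange) and all other cells (grey), for the untreated (U), hydrogel (H) and CO hydrogel (C) library. Green makes up 33.8%, 29.5% and 53.0% for Mrc1 and 25.3%, 15.8% and 26.6% for Fcgrt.

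Single subgroups other than the resident type showed gaps of their own, subcluster 11 among them. In CO hydrogel against hydrogel 5 of 8 measured genes were at least 2-fold higher there, Slco2b1 (1.64), F13a1 (1.38), Clec10a (1.31), Fcgrt (1.15) and Asgr2 (1.07), where 0.733% of genes were. Mrc1 was at 0.83 and Stab1 at 0.79. In hydrogel against untreated 2 of 6 were lower, Asgr2 (-1.46) and Clec10a (-1.33), where 0.797% of genes were. Subcluster 2, led by Vegfa and Cx3cr1, had Clec10a (1.91) and Fcna (1.30) higher of 4 measured in CO hydrogel against hydrogel, where 1.37% of genes were. It had Clec10a (-2.08), Mrc1 (-1.53) and Fcgrt (-1.12) lower of 4 in hydrogel against untreated, where 1.1% of genes were. Subcluster 12, led by glutathione transferase genes and Apoe, had Mrc1 alone higher of 7 (1.05, with 0.529% of genes).

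Trem2 Gpnmb macrophages had 4 of 6 measured genes lower in hydrogel than in untreated, Clec10a (-3.46), Asgr2 (-2.95), Fcgrt (-1.96) and Fcna (-1.39), where 3.11% of genes were. Clec10a alone of 5 was higher in CO hydrogel than in hydrogel there (2.45, with 1.8% of genes), and Clec10a (-1.01) and F13a1 (-1.19) were lower in CO hydrogel than in untreated (2.69% of genes). These macrophages came mostly from a different subcluster in each library, so the ratios also compare subclusters. Arg1 macrophages had F13a1 higher in hydrogel than in untreated (1.48, with 7.54% of genes) and Mrc1 (-2.19) and Clec10a (-2.29) lower (5.55% of genes). The Arg1 groups of the untreated and hydrogel libraries were mostly different subclusters, so these ratios also compare subclusters.

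Outside the macrophage pool Clec10a was the gene past 2-fold in both monocytes and mature dendritic cells. In classical monocytes it was the 1 of 3 measured genes that was higher in CO hydrogel than in hydrogel (1.43, with 0.698% of genes) and than in untreated (2.03, with 2.9% of genes). In mature dendritic cells it was again 1 of 3 (1.09 in both comparisons, with 0.747% of genes against hydrogel and 3.03% against untreated). That dendritic group may mix kinds of cell, as said above. In subcluster 7 Asgr2 was the 1 of 6 that was higher in CO hydrogel than in hydrogel (1.11, with 1.67% of genes), and F13a1 the 1 of 6 lower in hydrogel than in untreated (-1.52, with 2.04% of genes). In plasmacytoid dendritic cells 0 of the 9 genes reached 100 UMIs over the hydrogel and CO hydrogel libraries.

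Markers of other cells were read in the resident-type cells. Summed fibroblast markers (9 genes) stood at 477, 503 and 1003 CPM in the untreated, hydrogel and CO hydrogel library, with none of these markers at 0, against 57294, 40439 and 50375 CPM in fibroblasts. Fibroblasts made up 977, 976 and 3972 kept cells. Summed neutrophil markers (10 genes) stood at 279, 339 and 114 CPM, with 0 markers at 0 in the untreated, 2 in the hydrogel (Cxcr2 and Retnlg) and 3 in the CO hydrogel library (these and Mmp8), against 64796, 73438 and 89549 CPM in neutrophils. The part of these other cells' RNA in the ratios was not tested. Fibroblasts themselves held 3.61, 5.0 and 8.60 CPM of Mrc1 and 2.41, 3.15 and 9.83 CPM of Clec10a.

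At a finer clustering the resident-type name went to 5 subclusters, numbered here within that clustering, and covered more cells than before. Finer subclusters 3 and 4 lay almost wholly in the resident-type subgroup above (586 of 591 and 626 of 627 cells). Of finer subcluster 6, 293 of 445 cells did, and 137 came from subcluster 7. Finer subcluster 12 was mostly subcluster 11 (690 of 718 cells) and finer subcluster 19 mostly subcluster 7 (394 of 484 cells), so their values are not a split of the resident-type subgroup. Finer subcluster 12 had 108, 245 and 365 cells in the untreated, hydrogel and CO hydrogel library, and finer subcluster 19 had 93, 84 and 307. The resident-type share of macrophages thus depends on the clustering. Finer subcluster 4, led by C6, Lyve1 and Crabp2, held Cd209f at 57.6 CPM [47.6 to 69.0], 50.8 CPM [37.4 to 67.3] and 85.8 CPM [72.6 to 101] in the untreated, hydrogel and CO hydrogel library. Finer subcluster 3, led by Cd163, Slco2b1 and Selenop, held Slco2b1 at 98.6, 116 and 138 CPM and Cd209f at 43.8, 58.2 and 12.5 CPM. Finer subcluster 19, led by Ecm1, Tppp3 and Clec10a, held Clec10a at 1511, 1560 and 1791 CPM and Mrc1 at 1088, 817 and 1069 CPM but no UMI of Slco2b1 or Cd209f in any library. F13a1 in finer subcluster 4 stood at 571, 508 and 1236 CPM, and in finer subcluster 12, led by Plau, Rarres1 and Igf1, at 39.1, 13.7 and 37.1 CPM. Asgr2 was lowest in the hydrogel library in all 5. Finer subcluster 3 had only 29 cells in the untreated library, which limits its values.

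Across 33 sums of myeloid subgroup and library with at least 50 cells, the genes whose log2 levels followed the mean pattern of the 9 most closely were Cd163 (Pearson r 0.969), Rasl10a (0.938), Etv1 (0.934), Chp2 (0.923), Appl2 (0.92), C6 (0.909), Selenop (0.905), Cnrip1 (0.893), Itgb5 (0.89) and Colec12 (0.889), among 8407 genes. The points share libraries and depth, so r is a description, and Cd163 and Selenop are also resident-type markers. Closest to Mrc1 were Dab2 (0.957), Rgl1 (0.93) and Folr2 (0.916). Closest to Asgr2 was Cd163 (0.94), to Slco2b1 Selenop (0.961), to Stab1 Slc10a6 (0.919), to Fcna Etv1 (0.915), to Cd209f Pdgfc (0.94), to Fcgrt Heph (0.906) and to Clec10a Adam19 (0.879). Cd209f had no UMI in most of the sums, so its correlation rests on few of them. F13a1 had no gene closer than Pdpn (0.807). Among the 9, the closest pairs were Stab1 with Slco2b1 (0.88) and Clec10a with Asgr2 (0.87), and the least alike were Stab1 with F13a1 (0.44).

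Related gene lists did not share one direction in CO hydrogel against hydrogel over all macrophages. Of 9212 genes there, 4.04% were 2-fold higher and 3.52% were 2-fold lower. Of 15 measured other C-type lectins and collectins, 2 were 2-fold higher and 5 lower, with a median log2 ratio of -0.26. Colec12, a scavenger collectin, was at 127 CPM against 36.9 CPM, whereas Clec4e, a receptor for mycobacterial glycolipid, was at 23.4 CPM against 87.1 CPM and Fcnb, the monocyte ficolin, at 18.3 CPM against 82.3 CPM. Of 12 other scavenger receptors 5 were higher and 2 lower (median 0.42), and Lyve1 (260 CPM against 34.7 CPM) and Cd163 (411 CPM against 55.3 CPM) led them. The other 3 higher were Vsig4 (2.26), Siglec1 (1.33) and Folr2 (1.33). All 5 are among the resident-type markers above, so their gaps also follow the share of resident-type cells. Of 8 genes of the Fc receptor list none was higher and 1 was lower, Fcrla (2.98 CPM against 33.8 CPM), and B2m, the light chain that pairs with Fcgrt, was at 5606 CPM against 8301 CPM (-0.57).

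The coagulation list had 0 genes higher, 3 lower and 10 within 2-fold, with Tgm2, a transglutaminase related to F13a1, at 30.1 CPM against 119 CPM and F3, tissue factor, at 11.4 CPM against 23.2 CPM. Of 8 transporters 1 was higher (Slc46a3, 1.93) and 1 lower (Slc11a1, -1.04). Of 19 transcription factors 2 were higher, Pparg (6.79 CPM against 1.83 CPM) and Maf (48.2 CPM against 19.9 CPM), and 17 were within 2-fold, Spi1 among them (231 CPM against 207 CPM). Of 10 genes of the IL-4 and IL-10 response 1 was higher, Ccl24 (158 CPM against 36.5 CPM), and 1 lower, Arg1 (93.3 CPM against 480 CPM). Maf and Ccl24 are also among the resident-type markers above. Inflammatory macrophage genes had 2 higher and 8 lower of 16 (median -0.87). The 2 higher were Ccl2 (1.68) and Ccl4 (1.17), with ratios of -0.26 and -0.02 within resident-type cells. Acod1, which makes itaconate, was at 5.80 CPM against 206 CPM, and Nos2 was at 72.7 CPM against 760 CPM. Acod1 was a leader of the interferon-activated subcluster (21 cells in the CO hydrogel and 688 in the hydrogel library). These gaps over all macrophages thus also compare mixes of subgroups. Dissociation and stress genes had 0 of 13 past 2-fold in either direction. Within resident-type cells no list had a gene 2-fold higher, and 0 of 16 transcription factors passed 2-fold in either direction. List genes at least 2-fold lower there included Clec7a (-1.76), Arg1 (-1.42), Il1a (-1.28), Nos2 (-1.23), Olr1 (-1.21) and Il1b (-1.08), where 1.05% of 5254 genes were lower.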

How the data were processed

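Single cells of 3 wounds were counted with 10x Genomics 3' v3.1 chemistry. The deposited values are raw UMI counts per gene and barcode, made by the authors with Cell Ranger (6.0.1 per the file headers, 7.0.0 per the submitters' processing notes, which name build rn6) and not normalized. The smallest deposited barcode had 500 UMIs in each library. Kept barcodes had 500 or more UMIs, 300 or more genes and no more than 20% of UMIs from mitochondria. Scrublet ranked likely doublets, and the top 0.8% for each 1000 barcodes were dropped (1083, 1466 and 1634 barcodes), leaving 10550, 12069 and 12659 cells. Scanpy 1.11.5 clustered log-scaled counts on 2000 variable genes, the 9 members left out, with 30 components, 20 neighbours and resolution 1, first over all cells and again over myeloid cells. Subclusters were named from marker lists where the mean score was at least 0.15 and at least 3 markers were found in 20% of cells; this scoring was chosen after seeing the data, and 7 of 19 myeloid subclusters stayed unnamed.

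UMIs were summed per subgroup and library. CPM has exact Poisson intervals and a ratio an exact conditional binomial interval (scipy 1.17.1), at 95%. A gene was measured with at least 100 UMIs over both libraries. No test was made, since each group is 1 library. Shares of thinned cells leave out cells under 1000 UMIs, and 33509 cells reached that depth. The interval code was tested on simulated independent counts. That leaves out UMIs gathered in single cells and the spread between wounds. The text names all 9 members, from each list up to 4 genes with the largest absolute CO hydrogel to hydrogel log2 ratio, and the genes of highest Pearson correlation in log2(CPM + 10). Other genes named are cluster leaders, markers, the factors of the motifs and list genes at least 2-fold lower in resident-type cells. Some list genes at least 2-fold higher over all macrophages were named too. Spi1 among the lists was named for its motif. The members and lists were chosen with earlier results of these data known. Alternatives were stricter filters, no doublet removal, finer clustering, members kept in clustering, separate clustering, edgeR 4.0.16 TMM factors, per-cell means, no minimum, equal weights of subclusters, and 3 added after seeing the data (without shared barcodes, without resident-type cells, without shallow subclusters). Promoters are RefSeq sequences of build GRCr8, not of the build of the counts.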

Additional observations from a re-analysis of the deposited data

Results flagged for a closer look

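Clec10a differed in direction between subgroups in CO hydrogel against untreated. It was higher in classical monocytes (log2 ratio 2.03 [1.78 to 2.27], 300 CPM against 73.6 CPM) and in mature dendritic cells (1.09 [0.86 to 1.33], 677 CPM against 318 CPM), and lower in Trem2 Gpnmb macrophages (-1.01 [-1.30 to -0.73], 85.4 CPM against 172 CPM). Trem2 Gpnmb macrophages came mostly from subcluster 4 in the untreated library and mostly from the shallow subcluster 0 in the CO hydrogel library. The mature dendritic group may mix kinds of dendritic cell. Of thinned neutrophils 0.874% in the untreated and 4.09% in the CO hydrogel library held a Clec10a UMI. F13a1 differed in direction in hydrogel against untreated. It was higher in Arg1 macrophages (1.48 [1.36 to 1.61], 487 CPM against 174 CPM) and lower in unnamed subcluster 7 (-1.52 [-2.0 to -1.07], 80.5 CPM against 231 CPM). Arg1 macrophages came mostly from subcluster 1 in the untreated (539 of 546 cells) and from subcluster 18 in the hydrogel library (329 of 402 cells). The Arg1 ratio thus also compares subclusters. Each side rests on 1 library, and neither difference between subgroups was tested.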

How the results depend on the processing

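No paired analysis was possible because each group is 1 library, and for the same reason no library could be left out. Weighting the subclusters equally took the genes at least 2-fold higher in CO hydrogel than in hydrogel from 9 to 2, those higher than in untreated from 6 to 0, and those lower in hydrogel than in untreated from 7 to 1. Leaving out the resident-type cells gave 3 higher than in untreated and 3 lower in hydrogel than in untreated, of 8 measured. With the mean of per-cell CPM, 2 were lower in hydrogel than in untreated. Ratios past 2-fold that reversed were Cd209f in CO hydrogel against hydrogel (-0.11, equal weights) and F13a1 without the resident-type cells (-0.81 against hydrogel, -1.80 against untreated). Equal weights also turned the sign of 3 CO hydrogel to untreated ratios within 2-fold, Asgr2 (-0.35), Cd209f (-0.59) and Mrc1 (-0.17). The cause of the shift with per-cell means was not tested. The other 65 counts of genes under an alternative stayed within 1.5 times the reported ones. Of single-gene ratios and shares of cells under an alternative, 178 stayed within the counting interval, 164 moved beyond it and 3 reversed. Signs of all 27 ratios stayed under separate clustering, TMM factors, per-cell means, members kept in clustering, no doublet removal, no minimum, finer clustering and without shared barcodes, and of all 24 measurable ones under stricter filters. Depth limits Stab1 and Cd209f most, with 178 to 395 and 85 to 213 UMIs in a library.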

Other observations

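Some F13a1 UMIs lay in cells of no named class, at 48.0, 14.3 and 4.01 CPM in the untreated, hydrogel and CO hydrogel library. Single cells held up to 90 UMIs in the untreated and 89 UMIs in the hydrogel library, against 3 in the CO hydrogel library. The top 1% of these cells held 68.2%, 98.8% and 40.0% of their F13a1 UMIs. In unnamed subcluster 5, led by endothelial and matrix genes and left out of the macrophages, 77 cells of the CO hydrogel library held F13a1 at 331 CPM [278 to 391].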
